A study of Homo sapiens with 5 samples.

Results

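Open chromatin shared by the Hodgkin lymphoma lines L428 and L591 and the pro-B leukaemia line Reh, but listed neither in the Hodgkin line L1236 nor in the Burkitt lymphoma line Namalwa, was found at 2078 of 58006 merged regions on chromosomes 1 to 22 (3.58%, exact 95% Clopper-Pearson interval 3.43 to 3.74, counting error only). A merged region joins all peaks of the 5 deposited DNase-seq peak lists that share at least 1 bp, and the 2078 member regions are those with a peak of L428, of L591 and of Reh and no peak of the other lines. The members were chosen by the presence and absence of peaks in these same lists, so the values in this text that rest on those peaks are a description, and no test was run on them.

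The series compares 5 human cell lines of B-lineage malignancies by DNase-seq, with 1 library and 1 peak list for each line. L1236, L428 and L591 are labelled Hodgkin lymphoma lines. Reh (pro-B lymphoblastic leukaemia) and Namalwa (Burkitt lymphoma) are labelled non-Hodgkin. All were used untreated at passage 7, and the DNase I concentration was 12 U/ml for L591 and Namalwa and 6 U/ml for the remaining lines. Both concentrations occur among the lines with a peak in the member regions and among the lines without one. Each line is a long-term culture derived from 1 patient, so a difference between lines cannot be told apart from a difference between libraries.

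DNase I cuts DNA where nucleosomes have been displaced, mostly at promoters, enhancers and insulators bound by transcription factors. A site that is hypersensitive in several lines of a lineage is commonly a promoter or an element of that lineage's shared programme, whereas distal sites differ more between cell types. The malignant cells of Hodgkin lymphoma come from germinal centre B cells that have shut down much of the B cell programme. Reh resembles an early B cell precursor, and Namalwa resembles a germinal centre B cell. No gene annotation or sequence of the files' genome build, hg18, was used here. Regions are therefore given by position, without genes, and the labelled cell types were not checked against marker genes.

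The lists differed in length, which bears on what an absent peak means, and in the range of their scores. On chromosomes 1 to 22 the Namalwa list held 5643 peaks, L428 22758, L1236 24971, L591 26030 and Reh 27502. The score is the authors' peak area. Its lowest value per bp was highest for L1236 at 12.0, followed by L428 (6.60), L591 (5.70), Namalwa (4.42) and Reh (3.67). The median score per bp had the same order, with 19.4 in L1236, 10.4 in L428, 9.68 in L591, 7.12 in Namalwa and 5.87 in Reh. The lowest scores therefore do not show which list was cut most strictly. The L1236 list is also the one list whose name lacks the mark qcTrimmed. The part of list length, list threshold and that mark in the absences was not tested. The depth behind the lists is unknown, and scores were used as percentiles within a list, where 100 is the highest peak.

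Member regions were the second most frequent class with exactly 3 lines. They came after the 2518 regions of L1236, L428 and L591 and ahead of the 582 of L1236, L591 and Reh. The largest class of 3 lines that includes Namalwa, the shortest list, held 229 regions. Members made up 9.83% of all regions with an L428 peak, 8.24% of those with an L591 peak and 8.08% of those with a Reh peak. Regions of L428 and L591 without any other line numbered 3314, those of L591 and Reh 1576 and those of L428 and Reh 650. The count of 2078 fell to 245 when each list was limited to as many of its highest-scoring peaks as the Namalwa list holds. With L1236 ignored it was 4414, without L428 3668 and without Reh 5452, and it was 629 when the L428, L591 and Reh lists were limited to their upper 50%.

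**Figure D1:**
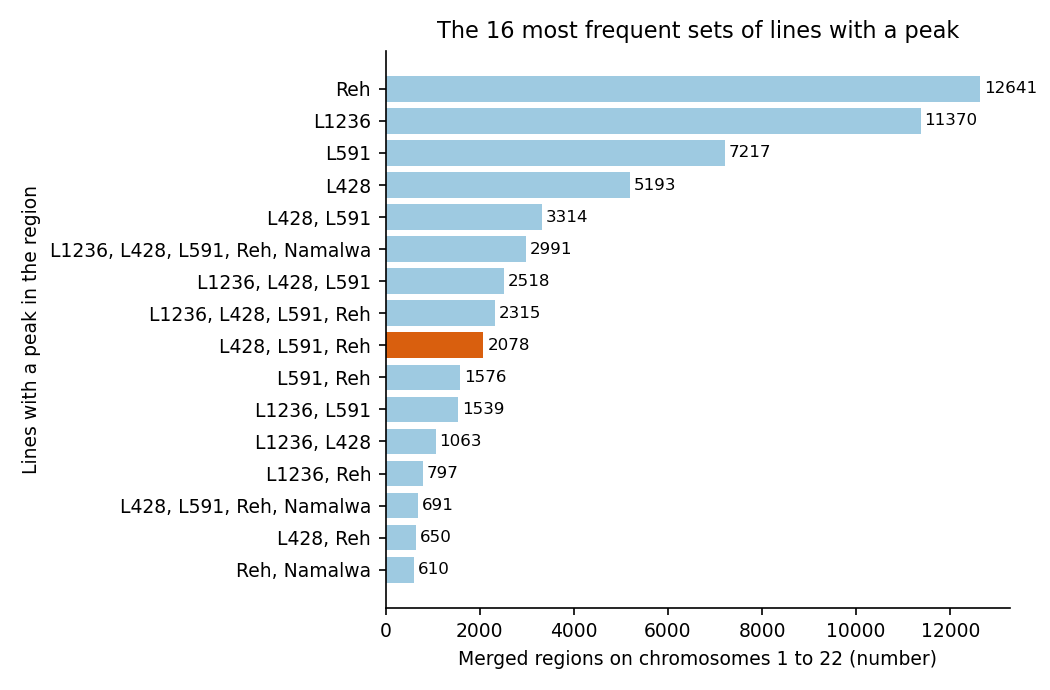
Number of merged regions (x axis) for the 16 most frequent sets of lines with a peak (y axis), with the 2078 member regions in orange. They rank ninth, below the 2315 regions that also have an L1236 peak and above the 1576 of L591 and Reh.

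The peaks of the 3 lines mostly lay on a single site. In 1762 of the 2078 regions (84.8%) each line had exactly 1 peak, and a stretch of at least 150 bp was covered by all 3 lines in 1921 regions (92.4%). The member regions had a median width of 570 bp, from 200 to 2860 bp. It was 350 bp over all merged regions and 950 bp over the regions of all 5 lines. The regions of L1236, L428 and L591 only had a median of 600 bp, and those of L428 and L591 only 440 bp. Inside the member regions the stretch common to the 3 lines had a median of 250 bp (quartiles 190 and 330 bp).

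Peak centres lay close together, in regions already chosen for overlapping peaks. Neither these distances nor the shares with 1 peak per line or with a common stretch were computed for other classes. In the regions with 1 peak per line, the median distance between centres was 45 bp for L428 and L591, 45 bp for L428 and Reh, and 50 bp for L591 and Reh. The centres lay within 100 bp of each other in 82.1% of these regions for the first pair and in 77.4% for the last. L591 had the widest peak in 1132 of the 1762, in a list whose median peak over all regions was 450 bp, against 320 bp in L428 and Reh. In 34 regions the 3 peaks were linked in a chain with no base common to all 3 lines. Reh had more than 1 peak in 196 regions, L428 in 138 and L591 in 55.

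Member regions were of middling strength in each list. The median score percentile was 49.7 in L428 (quartiles 29.3 and 68.1), 58.0 in L591 (38.3 and 72.8) and 62.0 in Reh (43.6 and 75.1). In L428, 68 members (3.27%) reached the upper 10% of the list, as did 51 (2.45%) in L591 and 55 (2.65%) in Reh. The middle of the class thus lay near or above the middle of each list, and few members were among its strongest peaks.

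The regions that differed from the members by a Namalwa peak, an L1236 peak or both had higher percentiles in all 3 lists. The 691 regions with an added Namalwa peak had medians of 63.7 in L428, 72.6 in L591 and 85.3 in Reh. The 2315 with an added L1236 peak had medians of 67.7, 75.6 and 69.9 in the same order. In the 2991 regions of all 5 lines the medians were 86.0, 90.5 and 92.7. Regions with an added Namalwa peak thus had the higher median in Reh, and those with an added L1236 peak the higher medians in L428 and L591. Dividing each score by peak width left the members at medians of 48.2, 56.4 and 62.6.

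**Figure D2:**
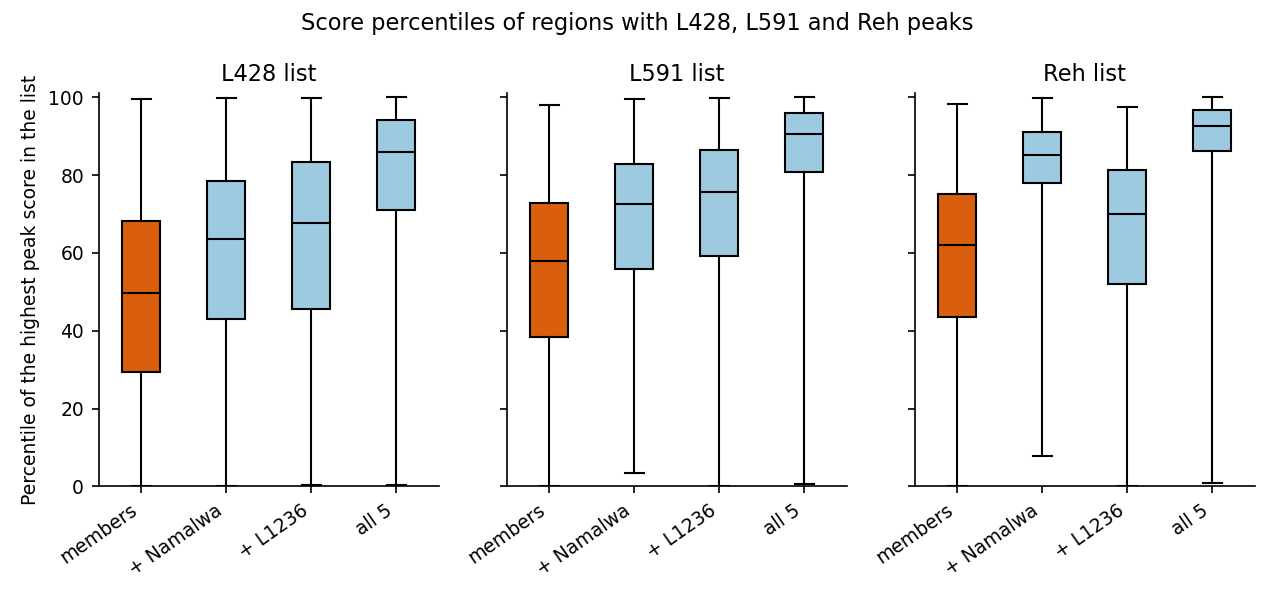
Score percentile (y axis) in the L428, L591 and Reh lists for the member regions (orange), and for the regions with an added Namalwa peak, an added L1236 peak, or both. Boxes span the quartiles with a line at the median, and whiskers reach the lowest and highest region. The member medians of 49.7, 58.0 and 62.0 are the lowest in each panel.

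Of the 8075 regions holding peaks of L428, L591 and Reh, whatever the other lines showed, 34.3% had no L1236 peak, 54.4% had no Namalwa peak and 25.7% had neither. Each list was then cut into 10 bands of 10 percentile points, numbered from the lowest. Absence from Namalwa differed most between bands of the Reh list. In its lowest band, 119 of 122 had no Namalwa peak (97.5%, exact interval 93.0 to 99.5). In the sixth band it was 576 of 611 (94.3%), in the ninth 785 of 1841 (42.6%) and in the highest 202 of 2277 (8.87%, 7.74 to 10.1). Ranked by L591 instead, the share was 84.7% in the lowest band and 21.6% in the highest. Nearly every region with a weak Reh peak was therefore without a Namalwa peak.

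Absence from L1236 was also more frequent at weak peaks. It was 73.3% (64.8 to 80.6) in the lowest band of L591 and 6.06% (5.07 to 7.18) in the highest, and 62.3% and 8.07% in those of L428. In Reh it was 52.7% or more in each of the first 6 bands and 11.6% in the highest. Where a Namalwa peak was also missing, L1236 lacked a peak in 2078 of 4393 regions (47.3%, 45.8 to 48.8), against 691 of 3682 (18.8%, 17.5 to 20.1) where Namalwa had one. Within the highest band of Reh these shares were 27.2% of 202 and 10.1% of 2075.

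**Figure D3:**
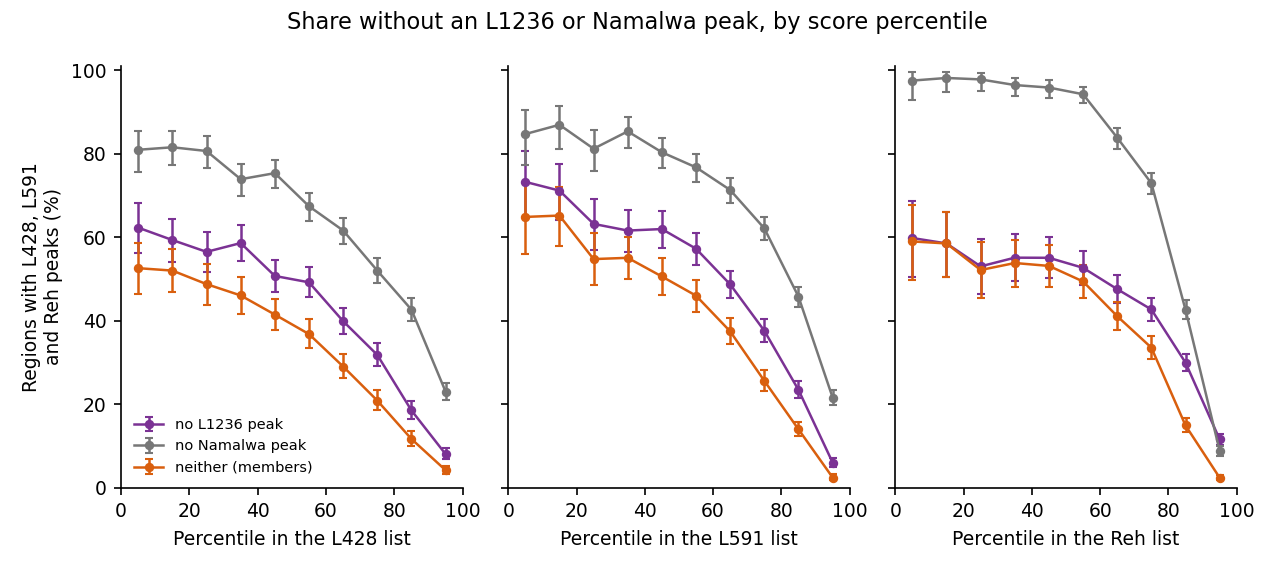
Share (y axis) of the 8075 regions with L428, L591 and Reh peaks that lack an L1236 peak, a Namalwa peak or both, by band of 10 percentile points in each of the 3 lists (x axis). Error bars are exact 95% intervals. All 3 shares are lower in the highest band than in the lowest in each panel, and the share without Namalwa is 94.3% or more over the first 6 bands of Reh.

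Strong and weak sites thus held very different proportions of members. Of the 2036 regions in the upper 20% of all 3 lists, 44 were members (2.16%, 1.57 to 2.89), while 1642 had a peak in all 5 lines. Of the 373 regions in the lower 50% of all 3 lists, 267 were members (71.6%, 66.7 to 76.1). A member that is strong in L428, L591 and Reh is therefore an uncommon case, and these are described next.

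The strongest member by its lowest percentile lay on chromosome 2 at 171998011 to 171999500 (hg18, as are all positions). It stood at percentile 95.5 in L428, 97.1 in L591 and 91.6 in Reh, with summed scores of 14992, 24200 and 10488. The nearest L1236 peak was 85.3 kb away and the nearest Namalwa peak 504.1 kb away. This region and the next, on chromosome 6 at 57062341 to 57063870, were the members in the upper 10% of all 3 lists. That one stood at percentile 96.7 in L428, 92.9 in L591 and 90.9 in Reh, and the nearest L1236 peak was 133.7 kb away.

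Chromosome 10 held 3 of the 10 leading regions. The region at 69761111 to 69762050 stood at 89.7 in L428, 91.2 in L591 and 94.3 in Reh, that at 90629411 to 90630890 at 93.8, 88.5 and 87.3, and that at 43270661 to 43271490 at 91.5, 87.0 and 87.3. The middle one had the longest common stretch of all members, 950 bp. For all 3 the nearest L1236 peak was at least 79.8 kb away.

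On chromosome 1 the region at 91259811 to 91260900 stood at 92.2 in L428, 89.3 in L591 and 91.6 in Reh, and that at 111483461 to 111484940 at 89.0, 92.7 and 86.2. The remaining leading regions lay on chromosome 3 at 187309431 to 187310100 (86.8, 89.8 and 94.1), chromosome 7 at 5575941 to 5576650 (97.0, 86.6 and 86.6) and chromosome 12 at 109535941 to 109536740 (86.5, 87.5 and 86.3). For the first region on chromosome 1 and the region on chromosome 7 an L1236 peak lay just beside the site, at 0.14 and 0.13 kb. For the other 8 leading regions it was 55.5 kb or more away.

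Members differed in which line held their highest-ranking peak. The highest percentile was that of Reh in 957 members (46.1%), of L591 in 639 (30.8%) and of L428 in 482 (23.2%). The lowest was that of L428 in 944. In 629 members (30.3%) all 3 peaks were in the upper 50% of their lists, and in 267 (12.8%) none was. Across members, Spearman's rho of the score percentiles was highest between the Hodgkin lines (0.44), then between L591 and Reh (0.34), and lowest between L428 and Reh (0.24). These correlations are across 2078 regions that share their 3 libraries, so they carry no p-value. In the regions of all 5 lines the same pairs had 0.71, 0.59 and 0.47.

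The difference between the Reh percentile and the mean of L428 and L591 ran from -76.9 to 76.1, with a median of 7.68 and quartiles of -8.77 and 23.4. Reh stood more than 25 points above the Hodgkin mean in 466 members (22.4%) and more than 25 points below it in 224 (10.8%).

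The largest Reh excess was on chromosome 17 at 34279731 to 34280780, with percentiles of 13.9 in L428, 3.44 in L591 and 84.8 in Reh. Next came chromosome 15 at 62232561 to 62233230 (6.04, 13.9 and 84.4) and chromosome 1 at 8799961 to 8800790 (14.6, 14.1 and 85.7). On chromosome 14 the region at 90887031 to 90887710 stood at 10.7, 0.355 and 75.5, with 20 bp common to the lines, and on chromosome 19 that at 1806081 to 1806920 at 22.5, 5.34 and 83.5. These sites were prominent in the precursor line and at percentile 14.1 or lower in at least 1 Hodgkin list, so membership rests on a weak Hodgkin call. An L1236 peak lay 0.15 kb from the chromosome 17 site and 0.99 kb from that on chromosome 14. A Namalwa peak lay 0.78 kb from that on chromosome 19. For the sites on chromosomes 15 and 1 peaks of both absent lines were 9.32 kb or more away.

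The opposite order was most marked on chromosome 14 at 73422751 to 73423510, with percentiles of 82.1 in L428, 85.3 in L591 and 6.86 in Reh. On chromosome 17 the region at 19024871 to 19025800 stood at 98.1, 67.9 and 6.86, and on chromosome 12 that at 9493461 to 9494330 at 98.9, 63.4 and 7.84. Further regions of this kind lay on chromosome 14 at 50631221 to 50632150 (79.6, 93.7 and 14.4) and chromosome 3 at 52714661 to 52715380 (83.4, 74.1 and 8.88). Here the Reh peak was near the foot of its list, so membership in the class rests on a weak Reh call.

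The widest member, 2860 bp on chromosome 7 at 56405471 to 56408330, stood at 99.5 in L428, 53.7 in L591 and 98.2 in Reh, with 1 peak in L428 and 3 each in L591 and Reh. A Namalwa peak lay 0.26 kb from it. The next in width were on chromosome 14 at 21921461 to 21923430 (1970 bp), chromosome 2 at 179023111 to 179025020 (1910 bp), chromosome 11 at 65098081 to 65099940 (1860 bp) and chromosome 10 at 30761921 to 30763770 (1850 bp). In the regions on chromosomes 14, 2 and 10 the L591 peak ranked highest, at 96.8, 95.6 and 93.7. In each of the 5 widest at least 1 line had more than 1 peak.

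The members on the border of the rule touched an L1236 peak without sharing a base with it. They lay on chromosome 2 at 75038941 to 75039630 (percentiles 17.2 in L428, 72.0 in L591 and 70.7 in Reh), chromosome 5 at 131774191 to 131774950 (19.3, 11.2 and 78.1) and chromosome 20 at 42537701 to 42538160 (75.9, 58.1 and 60.0). Just outside it, an L1236 peak shared 10 bp with a region on chromosome 2 at 27293671 to 27294360 (44.9, 52.3 and 56.9). It shared 20 bp with regions on chromosome 7 at 75345781 to 75347000 (28.5, 65.8 and 79.5) and chromosome 10 at 93658511 to 93659360 (65.4, 64.0 and 66.6). Few regions stood so close to the border, with 29 members within 50 bp of an L1236 or Namalwa peak and 8 regions overlapped by such a peak by 50 bp or less.

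Members lay no farther from peaks of the absent lines, by the median, than other regions without such a peak. The median distance to the nearest L1236 peak was 26.2 kb (quartiles 5.05 and 85.0 kb), against 33.4 kb over all merged regions without an L1236 peak. An L1236 peak lay within 1 kb of 293 members (14.1%, 12.6 to 15.7), against 9.78% of all 34318 merged regions without an L1236 peak, and within 10 kb of 680 (32.7%, 30.7 to 34.8), against 29.2%. For Namalwa the median distance was 85.9 kb, against 127 kb over all merged regions without a Namalwa peak. A Namalwa peak lay within 1 kb of 112 members (5.39%, 4.46 to 6.45), against 4.55% of all 53062 regions without a Namalwa peak, and within 10 kb of 294 (14.1%), against 13.9%. The intervals cover counting error only and treat regions as independent, which neighbouring regions are not. With absence required out to 1 kb, 1751 of the members remained.

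A few members lay in long stretches without an L1236 peak. Copy number and accessibility were not separated, here or in the chromosome, window and run counts below. The region on chromosome 6 at 49538491 to 49539290 was 2590 kb from the nearest L1236 peak and stood at 90.1 in L428, 84.6 in L591 and 85.9 in Reh. Others were on chromosome 4 at 44374851 to 44375400 (2039 kb), chromosome 18 at 22060041 to 22060680 (1734 kb), chromosome 6 at 96132021 to 96132760 (1714 kb) and chromosome 13 at 36291121 to 36291480 (1530.4 kb). A distance above 500 kb was found for 65 members (3.13%), a smaller share than the 4.47% of all merged regions without an L1236 peak. For Namalwa it was found for 318 members (15.3%), against 22.4% of all merged regions without a Namalwa peak.

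Chromosomes differed in how often a shared L428, L591 and Reh site was missing from the other lines. Chromosome 17 held 172 members (8.28% of them, 7.13 to 9.55) and 4.80% of all merged regions, the largest excess. Chromosome 1 held 163 (7.84%, 6.72 to 9.08) against 11.7% of merged regions, the largest deficit. Relative to the regions with L428, L591 and Reh peaks on the same chromosome, members were most frequent on chromosome 22, with 66 of 172 (38.4%, 31.1 to 46.1), and on chromosome 10, with 35.3% of 283. They were least frequent on chromosome 1 (17.1% of 956) and chromosome 19 (18.1% of 624). The background over all chromosomes was 25.7%.

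Absence from L1236 ran from 23.8% of these regions on chromosome 1 to 53.5% (45.7 to 61.1) on chromosome 22 and 55.8% (44.1 to 67.2) of 77 regions on chromosome 21. The whole L1236 list was thin on chromosome 22, with 0.985% of its peaks, against 2.92% for Reh, 2.09% for Namalwa, 1.67% for L591 and 1.64% for L428. On chromosome 1 it held 12.8% of its peaks, against 14.2% for Namalwa, 13.8% for Reh and 10.2% for both L428 and L591. On chromosome 17 the L1236 list also had the lowest share of the 5, with 4.04% of its peaks, against 4.78% for L591, 5.71% for Namalwa, 5.77% for Reh and 6.13% for L428. The chromosome with the largest excess of members and the one with the highest member share were thus both thin in the L1236 list. Chromosome 6, with 7.75% of members against 5.88% of merged regions, was not the thinnest there. It held 4.98% of L1236 peaks, above Namalwa (3.95%) and Reh (4.30%) and below L591 (7.24%) and L428 (8.48%). On chromosome 10 the L1236 share was 3.46%, above Namalwa (3.03%) and below Reh (3.64%). The part of list thinness in the member count was not tested.

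**Figure D4:**
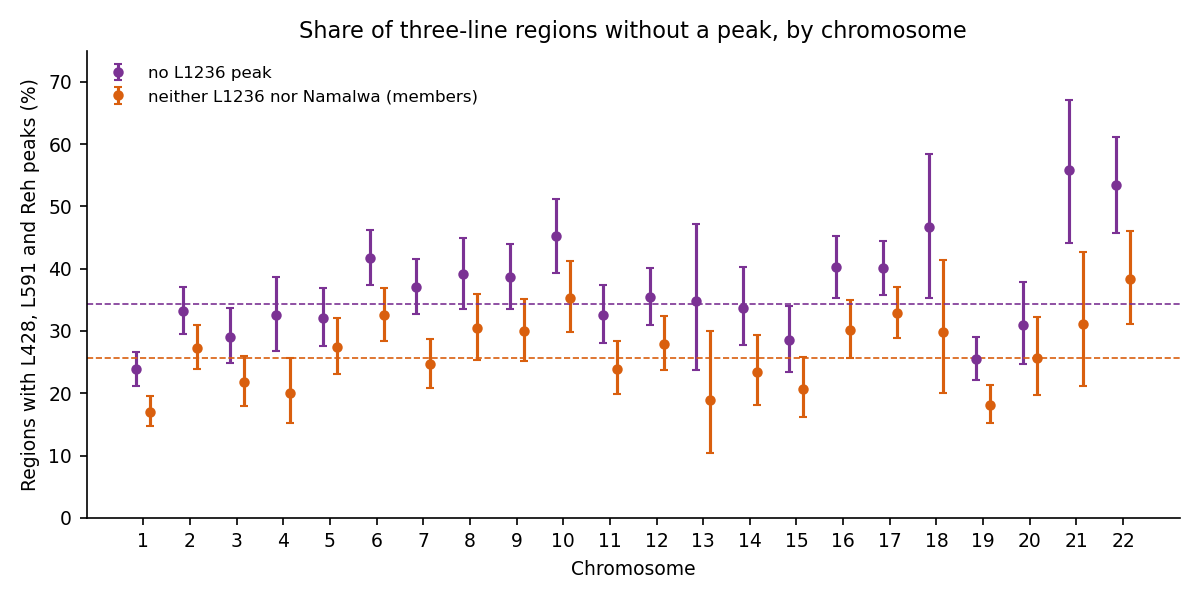
Share (y axis) of the regions with L428, L591 and Reh peaks on each chromosome (x axis) that lack an L1236 peak (purple) or lack both an L1236 and a Namalwa peak (orange, the members), with exact 95% intervals. Dashed lines mark the shares over all chromosomes, 34.3% and 25.7%. Chromosome 22 lies above both lines, and chromosomes 1 and 19 lie below both.

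Members were spread over 1021 of the 2620 windows of 1 Mb containing a merged region. A single member was found in 522 windows, and 5 or more in 68. Another member lay within 20 kb of 329 members (15.8%, 14.3 to 17.5), whereas 44.9% of all merged regions had another region of their own set of lines that near. The share was 30.1% of 2518 for the regions of L1236, L428 and L591 and 17.9% of 2315 for those with L1236 added to the 3 lines. The classes differ in their number of regions, so these shares are set side by side without a comparison.

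The window with the most members began at 1 Mb on chromosome 19, and 16 of its 28 regions of L428, L591 and Reh were members. There Reh had 76 regions, L591 48, L428 46, L1236 26 and Namalwa 13. The window beginning at 145 Mb on chromosome 8 was next with 13 members of 33 such regions. Those beginning at 64 Mb on chromosome 11 and at 12 Mb on chromosome 19 had 11 each, of 27 and 25. A further 4 windows had 9 members each. They began at 143 Mb on chromosome 6, 131 Mb on chromosome 9, 0 Mb on chromosome 16 and 7 Mb on chromosome 17. In the same order they held 9, 11, 14 and 28 regions of L428, L591 and Reh. Over all chromosomes, 25.7% of such regions were members.

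The window on chromosome 6 stood apart in its make-up from the other 7. L428 and L591 had 23 regions each there and Reh 13, while L1236 and Namalwa had 0. With both lines absent, the 9 regions there holding peaks of L428, L591 and Reh were members by the rule. In the other 7 windows L1236 had between 9 and 26 regions and Namalwa between 4 and 21. Members there lay among sites that the absent lines also had. How many of all windows lack both lines was not counted, so how unusual the chromosome 6 window is remains unknown. Of all merged regions without a Namalwa peak, 22.4% had none within 500 kb, and for L1236 the share was 4.47%.

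**Figure D5:**
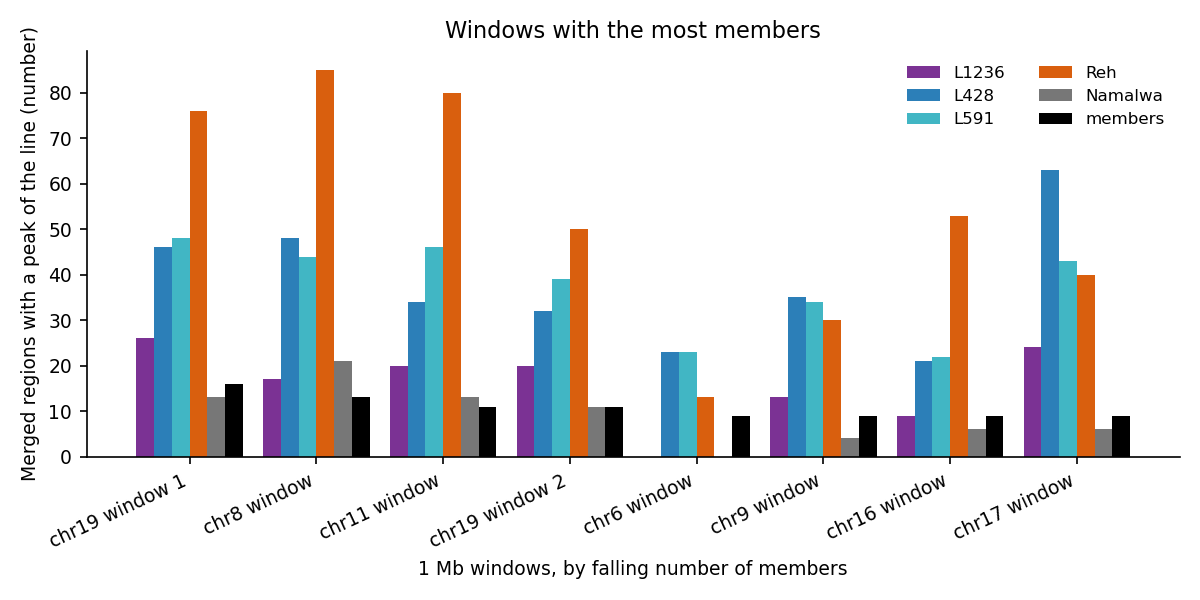
Number of merged regions (y axis) with a peak of each line, and number of members (black), in the 8 windows of 1 Mb with the most members (x axis). The chromosome 6 window has no L1236 and no Namalwa region, while L1236 has 9 to 26 regions in the other 7.

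Runs of consecutive shared sites without L1236 were examined after these values had been seen. Along the chromosomes, the 2769 regions with L428, L591 and Reh peaks and no L1236 peak formed 1637 runs uninterrupted by a region of these 3 lines that L1236 shared. Of the runs, 1042 were single regions and 63 had 5 or more regions, and those 63 held 292 members. In 13 of the 63 the span held no L1236 peak of any kind. Runs were defined by missing L1236 peaks, which favours such spans. The share among other spans of like length was not counted.

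Of these 13 runs, the one with the most regions lay on chromosome 6 at 143248171 to 144427100. Over 1.18 Mb it held 22 L428 peaks, 19 L591 peaks and 12 Reh peaks and none of L1236 or Namalwa. With both of those lines absent, its 11 regions shared by L428, L591 and Reh were members by the rule. The closely spaced regions of the chromosome 6 window are among them. On chromosome 10 at 69279081 to 69957640 a run of 6 regions was also without L1236 and Namalwa peaks, with 10 peaks in L428, 11 in L591 and 13 in Reh. It contained the third of the leading regions. On chromosome 2 at 172572931 to 173129790 a run of 5 members had 8, 7 and 7 peaks in these lines and 0 in the absent ones.

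Other long runs were empty of L1236 peaks but not of Namalwa peaks, or held L1236 peaks at other sites. On chromosome 9 at 138141341 to 138964840, L1236 had 0 peaks and Namalwa 9, and 5 of the 9 shared regions were members. The longest run, 12 regions on chromosome 22 at 41582961 to 45024990, held 9 members and 17 L1236 peaks. On chromosome 19 at 1211421 to 1430680 a run of 8 regions within 0.219 Mb consisted of members alone, with 1 L1236 peak and 0 Namalwa peaks in the span. The runs thus included both sites lying among L1236 peaks and stretches in which the L1236 list was empty.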

How the data were processed

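The 5 DNase-seq peak lists, 1 per cell line, were grouped as Hodgkin (L1236, L428, L591) or non-Hodgkin (Reh, Namalwa) by the labels. The submitters' processing notes name Bowtie 1.00 and the build hg18. Binning at 10 bp and read extension are recorded in the file columns. For the peak caller and its threshold, the entry is: not given in the sources used here. The deposited score of each peak is the authors' peak area, with no stated scaling to depth, so it was ranked within a list. A region took the highest percentile of its peaks in a line. Peaks of chromosomes 1 to 22 that shared at least 1 bp were merged.

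Members, named regions and alternatives were chosen with earlier results of these data known. Named regions were the 10 with the highest value of the lowest percentile over L428, L591 and Reh, the 5 with the largest Reh excess and deficit, the 5 widest, the 5 farthest from L1236 peaks, 3 on either side of the rule's border, and the 1 Mb windows ranking in the first 5 with ties. Shares have exact Clopper-Pearson intervals at 95%. Promoter, gene list and motif counts were not run, because no hg18 annotation or sequence was used here. Python 3.11.15 was used with scipy 1.17.1, pandas 2.3.3 and numpy 2.4.6. The merging was tested on simulated lists of well separated sites whose peaks always overlapped. Crowded or chained peaks were not part of that test.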

Additional observations from a re-analysis of the deposited data

Results flagged for a closer look

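Chromosome X was left out of the comparisons and held 22 further regions holding peaks of L428, L591 and Reh and none in L1236 or Namalwa. They were drawn to attention as a signal in data outside the comparisons. They made up 1.82% of the 1206 merged regions of that chromosome and 15.3% of the 144 regions there that all 3 of these lines shared, against 25.7% of such regions on chromosomes 1 to 22.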

How the results depend on the processing

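No paired analysis was possible because the result comes from no test. The count of 2078 moved by less than 1.5 times with overlap of 50% of the shorter peak (2126) and centres within 250 bp (2161). The same held for peaks set to 200 bp (2148) and peaks up to 200 bp apart joined (1897). It also held with chromosome X (2100) and with absence out to 1 kb (1751). With the upper 50% of each of the 5 lists the count was 1501, also within 1.5 times. There the L1236 and Namalwa lists were cut too, so regions with a weaker peak of those lines could enter. The count was 245 with lists of equal length, where fewer peaks enter. With the L428, L591 and Reh lists alone limited to their upper 50%, it was 629, again from fewer peaks. Leaving out a line gave 2769 (Namalwa) to 5452 (Reh), with 2849 for L591, 3668 for L428 and 4414 for L1236. Joining peaks up to 200 bp apart moved the median width to 630 bp, the distance to L1236 to 31.1 kb and the share of members within 20 kb of another to 12.5%. The upper 50% of each list raised the median percentiles by construction, to 73.2 in L428, 76.6 in L591 and 79.0 in Reh. It gave a width of 730 bp, a common stretch of 380 bp and 12.5% within 20 kb. The distances were 65.9 kb to L1236 and 206.1 kb to Namalwa. They run to the cut lists of those lines, which hold fewer peaks, and so are not comparable with the reported distances. Score per bp gave percentiles of 48.2 in L428 and 56.4 in L591, and ranking among peaks of similar width gave 47.8, 51.0 and 56.1 in L428, L591 and Reh. Within 10 kb the share was 10.7% and within 50 kb 25.9%, and the leading 5 Mb window held 28 members. Leaving out L1236 or Namalwa gave medians of 53.2 to 58.6 in L428, 61.8 to 67.2 in L591 and 66.2 to 69.3 in Reh, a width of 600 to 640 bp and a common stretch of 270 bp in both. It gave 8.23% to 10.4% on chromosome 1, 7.43% to 7.58% on chromosome 17 and 18.6% to 26.9% within 20 kb. The distance to L1236 without Namalwa was 28.6 kb and that to Namalwa without L1236 84.2 kb. Of 72 alternative values in all, 37 moved beyond the 95% interval of the reported value or, for a count, beyond 1.5 times, and 35 did not. Some alternatives change the quantity itself, such as another distance, window size or set of lines. The tally therefore does not measure dependence on processing alone. The cause of the changes was not tested, other than those given by fewer peaks. Depth is unknown and limits every statement on an absent peak.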
